A study of Mus musculus with 7 samples.

Results

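B lymphocytes of i4F pancreas were the cells of i4F mice whose deposited cluster name begins with B_lymph. There were 2086 of them among 25643 cells of i4F mice and 58473 cells of the whole series, 453 in mouse i4F 1, 343 in i4F 2 and 1290 in i4F 3. The 158 B lymphocytes of WT mice, 47 in WT 1 and 111 in WT 2, served as the reference. The pancreas of C57BL/6 mice aged 2 months was digested whole, and 1 library of single-cell RNA was made per mouse, in which the 3′ ends of polyadenylated RNA are read. The i4F mice carry the genotype named i4F-B, in which doxycycline induces the reprogramming factors Oct4, Sox2, Klf4 and Myc (OSKM). According to the methods, the OSKM cassette lies in Pparg and the rtTA transactivator in Rosa26, the mice were heterozygous for both, and expression is driven in all tissues rather than in a chosen cell type. Both WT and i4F mice drank doxycycline at 1 mg/ml in water with sucrose for 7 days, so the drug was shared by both groups. A further group of caerulein mice took no part in the comparisons.

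B lymphocytes recognise antigen with a membrane antibody that signals through Cd79a and Cd79b. A mature naive B cell makes IgM and IgD from the same heavy chain locus by alternative splicing, together with either a kappa or a lambda light chain. After activation it may divide and become a plasma cell, which secretes antibody, carries a swollen endoplasmic reticulum and lowers the naive B cell programme. B cells also present antigen on MHC class II, and they are sparse in the healthy pancreas.

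The i4F libraries differed from the WT libraries in depth per B cell, which bears on all that follows. The median number of UMIs (unique molecular identifiers, each standing for 1 captured RNA molecule) per B lymphocyte was 2886 in WT 1 and 2066 in WT 2, against 627, 467 and 1039 in i4F 1, 2 and 3. The groups did not overlap (exact two-sided permutation test over mice, p = 0.2, the smallest that 2 against 3 mice can give). Summed over B lymphocytes, the mice held 215883 and 419731 UMIs (WT) and 429270, 202274 and 1806705 UMIs (i4F). Mouse i4F 3 stood apart from the other 2 i4F mice, with macrophage clusters making up 6.30% of its cells against 35.6% and 39.6%. The library names put WT 2 in another series than the other 4 mice, and no source used here says what the series mean, so leaving out WT 2 gave the values within 1 series. B lymphocytes of different libraries shared 0 cell barcodes.

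The label held for most of the cells. Cd79a, the signalling chain of the antigen receptor, had a UMI in 83.9% of B lymphocytes of i4F 1, 69.7% of i4F 2 and 93.7% of i4F 3, and in 100.0% of both WT mice. Leaving out the few cells rich in antibody RNA and thinning each cell to 300 UMIs, which kept 43 and 97 cells (WT) and 439, 336 and 1282 cells (i4F), the shares were 72.6% and 69.1% (WT) against 63.7%, 52.3% and 65.9% (i4F). In NK and T cells of the same mice, which should lack the gene, the thinned share was at most 0.101%. The B lymphocytes held 80.1%, 79.5% and 89.5% of all Cd79a UMIs of the 3 i4F mice. Ebf1, a transcription factor of the B lineage that stromal cells also make, was less particular, with 4.62%, 5.52% and 42.2% of its UMIs in B lymphocytes. A group of 32 cells, 8 in i4F 1 and 24 in i4F 3, went against the label in most listed markers and is described with the sub-clusters.

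B lymphocytes made up a larger share of the cells in every i4F mouse than in either WT mouse. The shares were 1.09% in WT 1 and 1.75% in WT 2, against 4.62% in i4F 1, 4.17% in i4F 2 and 16.9% in i4F 3. Exact 95% binomial intervals, which cover counting error only, ran from 0.799% to 2.11% over the WT mice and from 3.75% to 17.8% over the i4F mice. The groups did not overlap, and the mean difference was 7.16 percentage points (exact permutation test, p = 0.2). Without i4F 3 the difference was 2.98 percentage points, and among cells with at least 500 genes it was 4.42 percentage points with overlapping groups (exact permutation test, p = 1.0). That limit kept 97.9% and 96.4% of WT B lymphocytes but 30.2%, 10.5% and 57.9% of those of i4F mice.

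Among immune cells the picture differed. B lymphocytes were 21.1% and 14.9% of the immune cells of WT mice and 10.9%, 8.64% and 45.6% of those of i4F mice. The i4F mice lay on both sides of the WT mice (exact permutation test, p = 1.0), and the difference (i4F minus WT) of 3.72 percentage points became -8.22 without i4F 3. Macrophage clusters took 2.40% and 8.13% of WT cells and 6.30% to 39.6% of i4F cells. The plot of B cell shares and depth shows both denominators side by side.

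**Figure D1:**
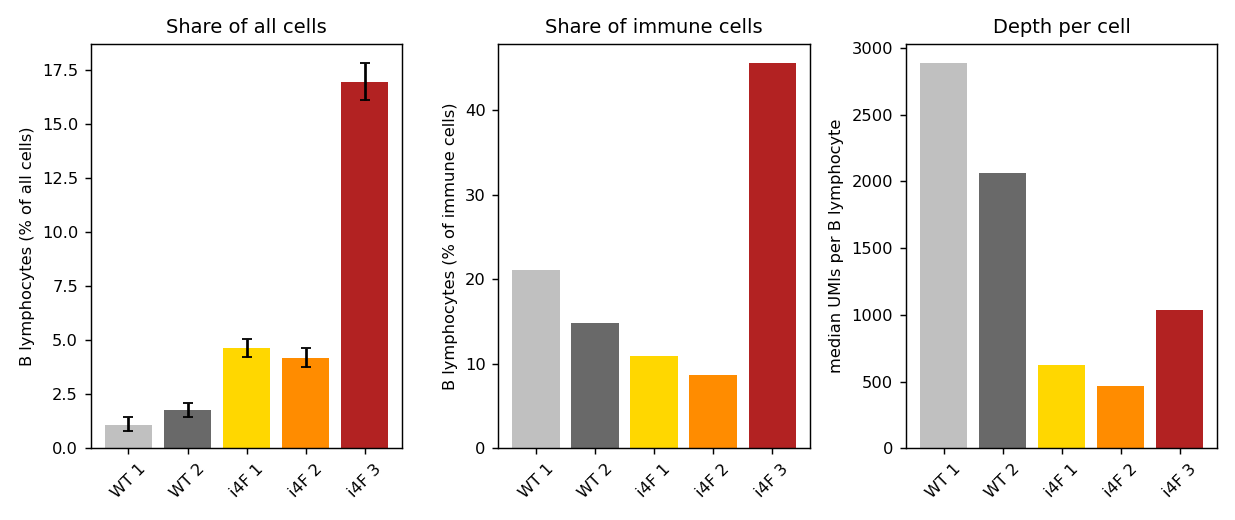
B lymphocytes as a percentage of all cells (left, bars with exact 95% binomial intervals) and of immune cells (middle), and the median number of UMIs per B lymphocyte (right), 1 bar per mouse. All 3 i4F bars stand above both WT bars on the left, from 4.17% to 16.9%, the groups overlap in the middle, and on the right the i4F medians of 467 to 1039 UMIs lie below the WT medians of 2066 and 2886.

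Antibody genes took a smaller share of the UMIs in i4F B lymphocytes than in WT, and a small number of WT cells carried most of the difference. Antibody genes and Jchain, the protein that joins IgM and IgA into polymers, took 19.7% and 26.3% of the B lymphocyte UMIs of WT mice and 1.47%, 1.13% and 1.99% of those of i4F mice. Cells with over 20% of their UMIs from these 166 genes, called antibody-rich here, were 3 of 47 cells in WT 1 and 14 of 111 cells in WT 2, and held 25.0% and 37.7% of those mice's B lymphocyte UMIs. Among i4F B lymphocytes there were 1, 0 and 2 such cells. Without such cells the share was 1.94% and 3.15% in WT mice and 1.25%, 1.13% and 1.88% in i4F mice. It was still lower in each i4F mouse (exact permutation test, p = 0.2). Few cells lay near the limit, at most 2 per mouse between 10% and 20% and at most 2 between 20% and 30%. In i4F mice the antibody-rich cells stood in a separate deposited cluster named follicular, which WT mice do not have, where they were 24 of 24, 26 of 27 and 63 of 67 cells. Counted over both labels, antibody-rich cells were 0.0693% and 0.221% of all cells in WT mice and 0.255%, 0.316% and 0.854% in i4F mice (exact permutation test, p = 0.2, no overlap).

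Antibody and plasma cell genes made up much of what was called lower. In the sums over all B lymphocytes, edgeR's quasi-likelihood test with Benjamini-Hochberg adjustment called 6 of 4923 genes higher in i4F mice (0.122%) and 16 lower (0.325%) at an adjusted p under 0.05. Of the 16 lower genes, 6 were antibody genes or Jchain. Jchain stood at 10997 and 11691 CPM (UMIs of the gene per 1000000 UMIs of the B lymphocytes) in WT mice and at 32.6, 4.94 and 62.5 CPM in i4F mice (log2 fold change -8.38 ± 0.61 SE, adjusted p = 0.000433). The plasma cell receptor Tnfrsf17 (BCMA) stood at 46.3 and 73.9 CPM against 0, 0 and 0.553 CPM (log2 fold change -6.90, adjusted p = 0.00501). Of the 9 tested genes on a plasma cell list, 5 were called lower and 0 higher, with a median log2 fold change of -2.53 beside 0.03 over all genes tested. Without scaling by TMM the same test called 21 genes higher and 15 lower, and the median of all genes was 0.32. Leaving the antibody-rich cells out, edgeR called 0 of 3715 genes lower (0.00%), and DESeq2 also called 0 lower. In that edgeR fit 303 genes in both directions had an unadjusted p under 0.05, 130 of them lower. Of the 22 genes called in either direction over all B lymphocytes, only 12 were still tested in it. The cells left out were chosen by their antibody UMIs, so the lost calls of antibody genes are no separate evidence. With the follicular cluster added to the i4F sums instead, edgeR called 0 genes lower and 1 higher, with 338 in both directions at an unadjusted p under 0.05.

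Values of genes other than antibody genes are therefore given below over B lymphocytes without antibody-rich cells, 44 and 97 cells in WT mice and 452, 343 and 1288 cells in i4F mice, and calls over all B lymphocytes are named as such. The WT sums held 162014 and 261297 UMIs and the i4F sums 426033, 202274 and 1796745 UMIs, so that values are coarsest in WT 1 and i4F 2. Apart from 2 macrophage markers, C1qb and Lyz2, DESeq2 called 0 members of any gene list in these cells.

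Among the remaining B lymphocytes, the share of IgD was higher in each i4F mouse than in either WT mouse. Ighd, the IgD heavy chain (chromosome 12, 113406604 to 113416324, minus strand, GRCm38), stood at 253 and 218 CPM in WT mice and at 308, 430 and 315 CPM in i4F mice. Ighm, the IgM heavy chain (chromosome 12, 113418558 to 113422730, minus strand), stood at 4055 and 6192 CPM against 3096, 2640 and 3343 CPM. All 3 i4F mice were above both WT mice for Ighd and below both for Ighm, as were 11.6% and 18.7% of all tested genes. Neither passed the edgeR test in these cells (adjusted p = 0.616 and 0.566). The log2 fold change of Ighm was -0.72 there and turned to 0.18 when cells with a UMI of another cell type's markers were also left out. As a share of Ighd and Ighm UMIs together, Ighd was 5.87% and 3.40% in WT mice and 9.03%, 14.0% and 8.61% in i4F mice, with no overlap (exact permutation test, p = 0.2). With the antibody-rich cells included the shares were 0.557% and 0.244% against 7.99%, 14.0% and 7.99%. In B lymphocytes without a UMI of another cell type's markers, the difference in the share over all B lymphocytes fell from 9.60 to 0.93 percentage points and the groups overlapped. These were only 15 and 52 cells in WT mice and 103, 135 and 563 cells in i4F mice. Ighm also had UMIs in NK and T cells, at 115 and 128 CPM in WT mice and 72.1, 72.7 and 199 CPM in i4F mice, and the part of such RNA in the shares was not tested. Jchain stayed at 30.9 and 524 CPM in the remaining B lymphocytes of WT 1 and WT 2. It had a UMI in 2.27% and 4.12% of those cells against 0.221%, 0.292% and 1.48% in i4F mice, and its part was not tested either.

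Light chain use overlapped between the groups by UMIs but not by cells. Lambda constant genes took 25.3% and 14.3% of light chain constant UMIs in WT mice and 12.6%, 25.5% and 21.4% in i4F mice without antibody-rich cells, so the groups overlapped (exact permutation test, p = 1.0). In i4F 2, 1 cell gave 221 of the 305 UMIs of Iglc1. Counted by cells with at least 3 light chain constant UMIs, those with more lambda than kappa were 18.6% of 43 and 12.4% of 97 cells in WT mice and 5.92% of 355, 3.87% of 155 and 9.46% of 1226 cells in i4F mice, with no overlap (exact permutation test, p = 0.2). The i4F cells were shallower, and the part of depth in this count was not tested. With antibody-rich cells included, the WT shares were 2.30% and 2.24% and the groups no longer overlapped (exact permutation test, p = 0.2). The plot of antibody UMIs sets both versions beside each other.

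**Figure D2:**
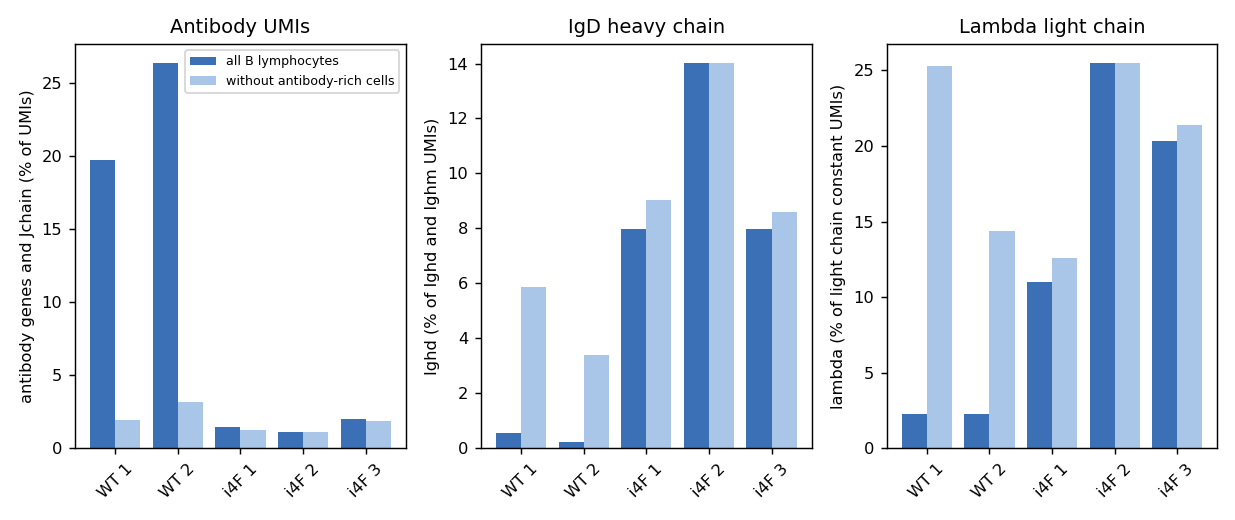
Antibody genes and Jchain as a percentage of B lymphocyte UMIs (left), Ighd as a percentage of Ighd and Ighm UMIs (middle) and lambda as a percentage of light chain constant UMIs (right), per mouse, over all B lymphocytes (dark) and without antibody-rich cells (light). Leaving out those cells takes the WT bars on the left from 19.7% and 26.3% to 1.94% and 3.15%, still above the i4F bars. It leaves the i4F bars above the WT bars in the middle and makes the groups overlap on the right.

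The B cell identity programme showed no called change. Of 8 B cell markers tested, 0 passed edgeR in either fit, 1 was lower at an unadjusted p under 0.05 without antibody-rich cells, and the lowest adjusted p there was 0.567. Over all 3715 genes tested there, 4.66% were higher and 3.50% lower at that unadjusted p. The 8 markers summed to 10629 and 9304 CPM in WT mice and 7384, 6091 and 8840 CPM in i4F mice, lower in each i4F mouse. Over all B lymphocytes the sums overlapped. Pax5, the factor that holds B cell identity, stood at 259 and 103 CPM in WT mice and 188, 218 and 140 CPM in i4F mice, and the groups overlapped. Ms4a1, which encodes CD20, stood lower in each i4F mouse, at 660, 282 and 703 CPM against 1376 and 1029 CPM (log2 fold change -1.07 ± 0.40 SE, adjusted p = 0.567). Of the 8 markers, 3 were lower and 1 higher in every i4F mouse. Groups that do not overlap were common here, since 18.7% of all tested genes were lower and 11.6% higher in every i4F mouse.

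B cell transcription factors and MHC class II genes had no call. Of 14 B cell transcription factors, edgeR called 0, 0 had an unadjusted p under 0.05 and 0 separated the groups, with a median log2 fold change of 0.04 beside 0.00263 over all tested genes. The 10 MHC class II genes also had 0 calls by edgeR, 0 genes at an unadjusted p under 0.05 and 0 separated genes, with a median of -0.04. Cd74, the invariant chain that guides MHC class II, stood at 27473 and 24719 CPM in WT mice and between 20229 and 24854 CPM in i4F mice. Antigen receptor signalling genes had 0 of 17 called by edgeR and 0 at an unadjusted p under 0.05, with a median of -0.24. Of the 17, 3 were lower in every i4F mouse, beside 18.7% of all tested genes. Their members Cd79b, at 1531 and 1294 CPM against 1007, 667 and 1099 CPM, and Cd81 were among the 3.

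The marginal zone, B1 and activation lists had 0 genes called by edgeR without antibody-rich cells. On the marginal zone list 2 of 3 tested genes were lower in every i4F mouse, on the B1 list 1 of 5, and on the activation and NF-kB list 3 of 15, with 1 higher. The summed B1 list overlapped, at 1117 and 1944 CPM in WT mice against 2277, 1033 and 955 CPM. The marginal zone list summed to 3321 and 2909 CPM against 1490.5, 1295 and 1567 CPM and the activation list to 5166 and 5607 CPM against 4716, 4786 and 4366 CPM, both lower in each i4F mouse. Over all B lymphocytes the activation sums overlapped. Mzb1, a chaperone of antibody assembly that marks marginal zone B cells, B1 cells and plasma cells, stood at 864 and 1213 CPM in WT mice against 432, 475 and 557 CPM (log2 fold change -1.05 ± 0.30 SE, adjusted p = 0.400). Over all B lymphocytes edgeR called Mzb1 lower (log2 fold change -1.87, adjusted p = 0.0337). That call was lost without cells holding other cell types' markers (-0.99, adjusted p = 0.666), with the follicular cluster added (-0.49, adjusted p = 0.745), among cells with at least 500 genes (adjusted p = 0.132), and without WT 2, i4F 1 or i4F 2 (adjusted p = 0.124, 0.121 and 0.186). Without antibody-rich cells and cells holding other markers its log2 fold change was 0.057. Plac8, also on the marginal zone list, stood at 2173 and 1493 CPM against 859, 677 and 853 CPM (log2 fold change -1.15, adjusted p = 0.239). For the heat stable antigen Cd24a the values were 654 and 402 CPM against 157, 168 and 292 CPM (log2 fold change -1.26, adjusted p = 0.519). Cd69, an early activation marker, stood at 426 and 425 CPM against 181, 89.0 and 282 CPM (log2 fold change -1.09, adjusted p = 0.597). In these 4 genes, picked after their values were seen, every i4F mouse lay below both WT mice, as 18.7% of all tested genes did.

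The follicular B cell list had 0 of 10 genes called by edgeR, with 4 positive and 6 negative log2 fold changes, a median of -0.28, and 1 gene higher and 3 lower in every i4F mouse, near the 11.6% and 18.7% of all tested genes. A pair of genes from outside that list stood higher in each i4F mouse without passing the test. Satb1, a chromatin organiser of lymphocytes, stood at 136 and 95.7 CPM in WT mice and 343, 593 and 176 CPM in i4F mice (log2 fold change 1.68 ± 0.50 SE, adjusted p = 0.487). Vpreb3, a small protein of the B cell receptor assembly pathway, stood at 123 and 126 CPM against 155, 227 and 229 CPM (log2 fold change 0.75, adjusted p = 0.607). On the homing and adhesion list edgeR called 0 of 12 tested genes, and 1 was higher at an unadjusted p under 0.05, beside 4.66% of all tested genes.

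No cell cycle gene was called. Of 9 tested by edgeR without antibody-rich cells, 0 passed, 2 were lower at an unadjusted p under 0.05, all 9 had a negative log2 fold change, 7 were lower in every i4F mouse, and the median was -0.96. Over all tested genes 3.50% were lower at that unadjusted p and 18.7% lower in every i4F mouse. The summed list stood at 1815 and 1198 CPM in WT mice and 601, 539 and 1036 CPM in i4F mice, but over all B lymphocytes the groups overlapped, at 1376 and 912 CPM against 599, 539 and 1037 CPM. Mki67, which marks dividing cells, stood at 185 and 88.0 CPM in WT mice and 25.8, 19.8 and 32.8 CPM in i4F mice (log2 fold change -2.18 ± 0.43 SE, adjusted p = 0.147). Top2a, the topoisomerase of replicating DNA, stood at 154 and 76.5 CPM against 14.1, 39.6 and 51.2 CPM (log2 fold change -1.53, adjusted p = 0.567). Both were lower in all 3 i4F mice than in either WT mouse. Of the endoplasmic reticulum chaperones edgeR called 0, with 5 lower at an unadjusted p under 0.05, 9 of 10 tested genes negative, 6 lower in every i4F mouse, beside the same shares over all tested genes, and a median of -0.69 in these cells. Pdia4, a disulfide isomerase, stood at 148 and 199 CPM against 93.9, 69.2 and 82.4 CPM (log2 fold change -1.03 ± 0.31 SE, adjusted p = 0.496), and was called lower only with the antibody-rich cells included (adjusted p = 0.0231). On the germinal centre list, 0 of 8 genes had enough UMIs to enter the edgeR test.

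**Figure D3:**
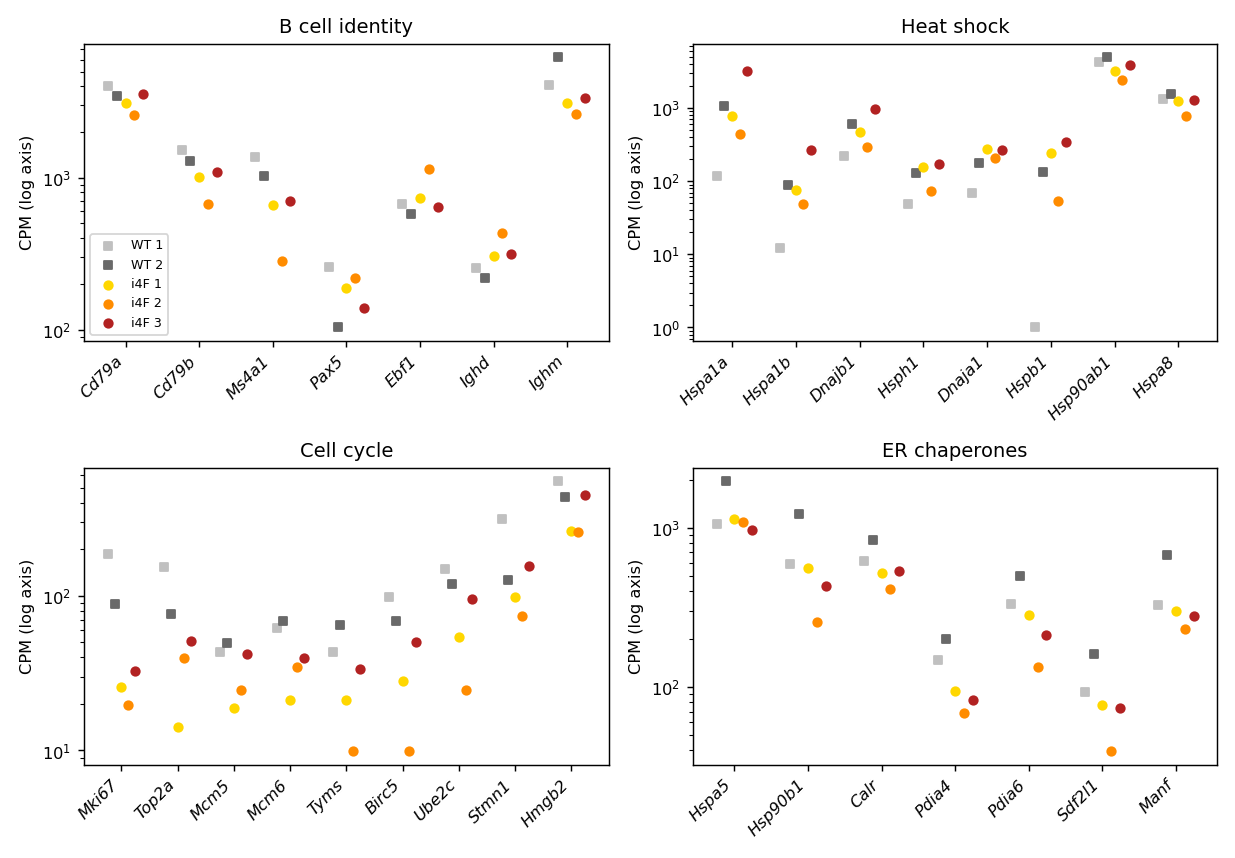
CPM (log axis) of named genes in B lymphocytes without antibody-rich cells, 1 point per mouse, WT as squares and i4F as circles, with values under 1 drawn at 1. Pax5 and Ebf1 overlap between the groups, Mki67 lies at 88.0 and 185 CPM in WT mice and at 19.8 to 32.8 CPM in i4F mice, and Hspa1a ranges from 117 to 3189 CPM.

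Most of the called increases were in genes of secreted acinar proteins. Reg2, Reg3a, Reg3b and Reg3g of the Reg family were called higher both over all B lymphocytes and without antibody-rich cells, and they were 4 of the 5 genes (0.135%) called higher in the latter. Reg proteins are lectins that the injured pancreas secretes, and these genes lie together on chromosome 6. Reg3b (78370657 to 78373466, plus strand, GRCm38) stood at 148 and 11.5 CPM in WT mice and 8117, 9047 and 11939 CPM in i4F mice (log2 fold change 7.11 ± 0.78 SE, adjusted p = 0.00783). Reg2 (78395623 to 78408106, plus strand) stood at 130 and 42.1 CPM against 5166, 7287 and 18865 CPM (log2 fold change 7.08 ± 0.79 SE, adjusted p = 0.00783). Every i4F mouse was far above both WT mice. Reg3g had 2 UMIs over both WT mice, and its pooled level was 115 times higher in i4F mice (95% counting interval 31.7 to 948). Over all B lymphocytes 1 of the 4 genes, Reg3g, was still called without i4F 2 and with the follicular cluster added, and 3 were called without cells holding other cell types' markers. In the cells without antibody-rich cells, 3 were called without i4F 2.

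The same genes moved in the other cells of the same libraries. Reg3b stood at 153 and 8.56 CPM in NK and T cells of WT mice and at 1391, 5472 and 9522 CPM in those of i4F mice. In endothelial clusters it stood at 294 and 11.8 CPM against 1280, 4273 and 11829 CPM, and in acinar clusters, the gene's main site, at 56587 and 458 CPM against 70514, 92496 and 92862 CPM. In i4F 1 the B lymphocytes held 8117 CPM where NK and T cells held 1391 CPM, while in i4F 3 the 2 were at 11939 and 9522 CPM. In i4F 1, 2362 of the 3458 Reg3b UMIs lay in 2 cells of sub-cluster 5, described with the sub-clusters, in which Cd79a had 0 UMIs. Without sub-cluster 5 Reg3b stood at 2677, 7917 and 9521 CPM in the B lymphocytes of i4F 1, 2 and 3, and Reg2 at 1863, 6367 and 14829 CPM. The ratio of Reg2 to Reg3b UMIs was 0.636, 0.805 and 1.58 in the B lymphocytes of i4F 1, 2 and 3, 0.756, 0.757 and 1.54 in their NK and T cells, and 0.661, 0.703 and 1.55 in their endothelial clusters, with i4F 3 the highest in all 3 cell types. Without sub-cluster 5 the B lymphocyte ratios were 0.696, 0.804 and 1.56. The part of RNA from other cells in the Reg UMIs of B lymphocytes was not tested. Rps29, a ribosomal protein gene called higher over all B lymphocytes (adjusted p = 0.0390) but not without antibody-rich cells (adjusted p = 0.0772), was higher in each i4F mouse than in either WT mouse also in NK and T cells and in endothelial, macrophage and acinar clusters. It stood at 747 and 765 CPM against 2120, 2610 and 1774 CPM in B lymphocytes without antibody-rich cells, and at 597 and 728 CPM against 1942, 3133 and 2066 CPM in NK and T cells.

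**Figure D4:**
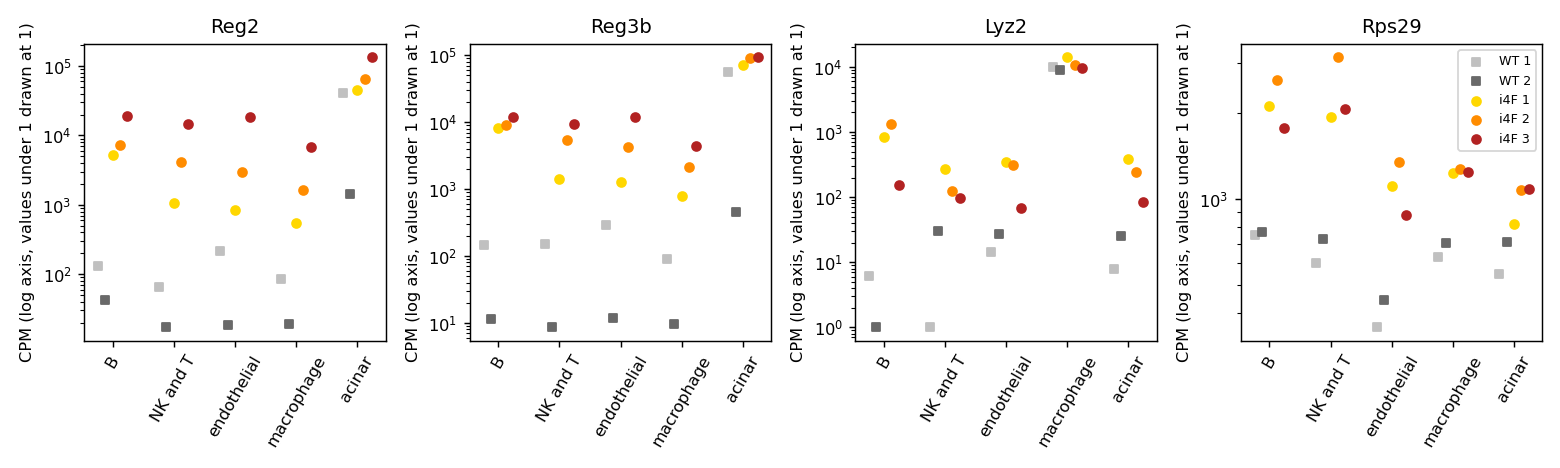
CPM (log axis, values under 1 drawn at 1) of Reg2, Reg3b, Lyz2 and Rps29 in B lymphocytes without antibody-rich cells and in 4 other kinds of deposited clusters, 1 point per mouse, WT as squares and i4F as circles. Reg2 and Reg3b are high in all cell types of i4F mice and highest in acinar clusters, Lyz2 is highest in macrophage clusters at 8955 to 13967 CPM, and Rps29 is higher in i4F mice in each cell type.

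Markers of macrophages also appeared among i4F B lymphocytes. Lyz2, a lysozyme of myeloid cells, stood at 6.17 and 0 CPM in WT mice and 836, 1345 and 151 CPM in i4F mice, and was called higher over all B lymphocytes (adjusted p = 0.0337) but not without antibody-rich cells (adjusted p = 0.0772). With 1 UMI in WT mice, its pooled level, in which i4F 3 with its lower value weighs most, was 157 times higher in i4F mice (95% counting interval 28.1 to 6212). Fcer1g, a signalling chain of Fc receptors in myeloid and NK cells, had 1 UMI in WT mice and stood at 305, 114 and 117 CPM in i4F mice (edgeR adjusted p = 0.0499). That call was lost with other scaling (adjusted p = 0.0972 without TMM and 0.0568 with RLE factors) and without WT 1, WT 2 or i4F 2 (adjusted p = 0.204, 0.117 and 0.0621), and over all B lymphocytes Fcer1g was not called (adjusted p = 0.381). All 6 tested macrophage markers had a positive log2 fold change, and the 8 markers summed to 37.0 and 49.8 CPM in WT mice and 2265, 1849 and 293 CPM in i4F mice. In NK and T cells Lyz2 stood at 268, 122 and 98.7 CPM in the i4F mice, lower than in their B lymphocytes, and in macrophage clusters at 13967, 10653 and 9508 CPM. Few cells carried the B lymphocyte values, since 671 of the 900 Lyz2 UMIs lay in the 122 cells of sub-cluster 4. Without them Lyz2 stood at 328, 222 and 47.2 CPM, above NK and T cells in i4F 1 and i4F 2 and below them in i4F 3. The T cell markers summed to at most 112 CPM and the NK cell markers to at most 34.0 CPM in any mouse. Of the acinar list, 2 of 16 genes were in both tables, Amy2b and Spink1, which summed to 265 and 207 CPM against 291, 331 and 1148 CPM. The ductal markers summed to 67.9 and 57.4 CPM against 317, 262 and 304 CPM. The stellate markers summed to 130 and 1466 CPM in WT mice and 2066, 559 and 163 CPM in i4F mice, so the groups overlapped. Neutrophil and dendritic cell markers were at 0 in both WT mice and summed to 86.8, 59.3 and 11.7 CPM and to 72.8, 34.6 and 67.3 CPM in i4F mice, while the endothelial markers were lower in each i4F mouse, at 370.3 and 475 CPM against 218, 138 and 198 CPM. The part of these cells in the results was not tested.

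The rtTA transgene was detected at low levels in the i4F B lymphocytes. The rtTA transactivator was not detected in WT B lymphocytes (0 UMIs) and had 22, 12 and 57 UMIs in i4F 1, 2 and 3, or 51.6, 59.3 and 31.7 CPM. Its pooled level was at least 5.29-fold higher than a floor of 3 counts over the WT mice. All other cells of the same i4F mice held rtTA at 42.4, 48.4 and 49.0 CPM, and those of WT 1 and WT 2 had 16 and 3 UMIs of it. The part of RNA from other cells in the B lymphocyte UMIs was not tested. Of the reprogramming factors, Pou5f1, which encodes Oct4, had 1, 1 and 0 UMIs and Sox2 had 1, 0 and 0 UMIs in i4F mice, while WT mice had 0 UMIs of either. Myc, which activated B cells also make from their own gene, stood at 290 and 299 CPM in WT mice and 117, 129 and 165 CPM in i4F mice (log2 fold change -1.03 ± 0.31 SE, adjusted p = 0.496). Klf4, a brake on B cell division, stood at 61.7 and 61.2 CPM against 39.9, 39.6 and 25.6 CPM. Neither passed the test, and both were lower in every i4F mouse, as were 18.7% of all tested genes. Reads of a transgene and of the mouse's own gene cannot be told apart in these sums. Because only 3′ ends are read, the few UMIs of Pou5f1 and Sox2 do not show how far the OSKM cassette was expressed.

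The 2086 cells fell into 6 sub-clusters when clustered on their own, and their shares differed widely between the 3 i4F mice. Because clusters and genes come from the same cells, the leading genes are given as a description with no test. Sub-cluster 1 held 954 cells, 14.6%, 4.96% and 67.5% of the B lymphocytes of i4F 1, 2 and 3, and was led by Iglc1, Hist1h1e and Mzb1. Sub-cluster 2 held 614 cells, 64.9%, 86.3% and 1.86% of the 3 mice. It was led by Neurl3, C230085N15Rik, Ssh2 and Satb1, and its cells had the lowest pooled median depth of the 6 groups, 508 UMIs. By mouse the medians were 561 and 457 UMIs in i4F 1 and i4F 2 but 1518 UMIs over its 24 cells in i4F 3, above the 1050 UMIs of that mouse's sub-cluster 1. The 2 largest sub-clusters thus largely separated i4F 3 from i4F 1 and i4F 2, although each mouse had cells in both. Within i4F 1, 2 and 3, Satb1 stood at 581, 734 and 561 CPM in sub-cluster 2 and at 141, 93.2 and 186 CPM in sub-cluster 1. Ighd stood at 514, 479 and 347 CPM in sub-cluster 2 against 101, 140 and 299 CPM in sub-cluster 1, from 3 to 375 UMIs a value, and Ighm at 2943, 2085 and 2403 CPM against 7209, 7600 and 3976 CPM. Both leading genes and antibody genes took part in the clustering, so these are descriptions.

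Sub-cluster 3, with 329 cells, was led by heat shock genes. It made up 7.51%, 2.04% and 22.3% of the B lymphocytes of i4F 1, 2 and 3. Hspa1a, an inducible chaperone of the HSP70 family, stood at 14570 CPM in these cells against 650 CPM in the other i4F B lymphocytes, and had a UMI in 98.8% against 10.0% of cells. Hspa1b, its near-identical neighbour on chromosome 17, stood at 1248 against 53.6 CPM, and the split of UMIs between the 2 copies is uncertain. Dnajb1, an HSP40 partner, stood at 3847 against 341 CPM, and the stress-induced transcription factor gene Jun at 3944 against 622 CPM. Cd79a remained at 3914 CPM in the sub-cluster, near the 3812 CPM of sub-cluster 1. Between the groups the heat shock list gave 0 calls by edgeR among 13 tested genes, with a median log2 fold change of 0.35. It had 1 higher gene at an unadjusted p under 0.05, beside 4.66% of all tested genes. Hspa1a stood at 117 and 1068 CPM in WT mice and 779, 435 and 3189 CPM in i4F mice, so the groups overlapped. In NK and T cells Hspa1a stood at 679 and 1288 CPM against 139, 482 and 3407 CPM, so that i4F 3 was the highest mouse there too.

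Heat shock genes are known to be switched on by Hsf1, which binds inverted repeats of the bases GAA before the start site. The 250 bases upstream of the RefSeq start are shown for 3 of the heat shock genes that led sub-cluster 3, picked because they hold the motif. They are from GRCm38.p6, Hspa1a at chr17:34972157-34972406 (minus strand), Hspa1b at chr17:34959239-34959488 (minus strand) and Dnaja1, of which the first of 3 listed starts is used and the other 2 have no match, at chr4:40722218-40722467 (plus strand). Capitals mark the motif GAANNTTC.
Hspa1a: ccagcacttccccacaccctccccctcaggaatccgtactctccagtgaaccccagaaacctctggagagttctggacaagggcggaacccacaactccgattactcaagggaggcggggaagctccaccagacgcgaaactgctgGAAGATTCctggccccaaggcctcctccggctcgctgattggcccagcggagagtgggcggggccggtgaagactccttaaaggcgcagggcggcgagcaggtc
Hspa1b: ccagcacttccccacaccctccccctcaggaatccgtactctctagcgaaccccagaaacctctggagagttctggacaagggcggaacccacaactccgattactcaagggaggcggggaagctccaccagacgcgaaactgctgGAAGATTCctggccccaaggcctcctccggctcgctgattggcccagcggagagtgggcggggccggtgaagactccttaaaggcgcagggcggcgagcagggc
Dnaja1: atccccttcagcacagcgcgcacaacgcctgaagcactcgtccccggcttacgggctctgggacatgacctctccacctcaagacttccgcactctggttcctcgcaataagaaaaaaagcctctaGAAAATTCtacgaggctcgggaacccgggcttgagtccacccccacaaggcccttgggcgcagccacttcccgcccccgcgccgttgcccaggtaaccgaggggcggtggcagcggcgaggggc
The windows of Hspa1a and Hspa1b are identical at 247 of 250 positions, and in both the motif starts 104 bases before the start site. GAANNTTC reads the same on both strands. It was found in 6.69% of the 32851 windows of this length in the RefSeq table, and in 6 of the 11 heat shock genes that the table holds (Dnaja1, Hspa1a, Hspa1b, Hspb1, Hspd1 and Hspe1). The other arrangement, TTCNNGAA, was in 7.17% of windows and in 3 of the 11 genes (Hspd1, Hspe1 and Hsph1). Genes with several listed starts count if any window matches, which for Dnaja1 is 1 of 3 and for Hspd1 1 of 2. The counts of genes and the percentages of windows are thus not on the same footing. Dnajb1, which also led the sub-cluster, held neither arrangement in its 2 windows. A match is a run of letters and not a measured binding site.

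The 3 small sub-clusters were led by genes of other cell types, sub-cluster 4 through only some of its cells. Sub-cluster 4 held 122 cells (10.8%, 6.41% and 3.95% of the 3 mice) and was led by Chil3, Thbs1, Cxcl2 and Lyz2, genes of macrophages and inflammation, with Cd79a at 1964 CPM and a UMI of it in 80.3% of cells. In 12 of these cells Cd79a and Lyz2 each had at least 2 UMIs. At a finer resolution of 0.5 the sub-cluster split into parts of 74 and 48 cells. The finer cluster of 81 cells that took the 74 was led by Gadd45b, Bcl2a1d and Nfkbid, with Irf4 also among its leading genes, which activated lymphocytes are known to express, and had Cd79a at 3127 CPM and Lyz2 at 132 CPM. The finer cluster of 49 cells that took the 48 held 662 Lyz2 UMIs, at 4989 CPM, with Cd79a at 1553 CPM. Sub-cluster 5 held 35 cells, 32 of them in i4F 3, and was led by Clu, Dmbt1 and Lrg1, with Reg3b at 83161 CPM and Spink1, an acinar trypsin inhibitor, at 5519 CPM. Cd79a had a UMI in 88.6% of its cells, 96.9% of those in i4F 3, but in 0 of the 3 cells in i4F 1 and i4F 2. Sub-cluster 6 held 32 cells and went against the B cell label in most listed markers. Its Cd79a had a UMI in 6.25% of cells, and Ighd, Ebf1 and Pax5 had 0 UMIs. Ly6d, also a listed B cell marker, went the other way, at 6334 CPM in 90.6% of cells against 2140 CPM in sub-cluster 1. Ighm had a UMI in 75.0% of its cells. It was led by Siglech, Ly6c2, Cox6a2 and Bst2, with Siglech in 96.9% of its cells against 0.0487% of the other i4F B lymphocytes. Siglech and Bst2 are surface proteins known from plasmacytoid dendritic cells, and Tcf4, a transcription factor of that lineage that B cells also make, stood at 1107 CPM in 75.0% of its cells against 168 CPM in 14.6% of the other i4F B lymphocytes. Of the 6 listed dendritic cell markers 5 were detected, Siglech with 99 UMIs, Cd209a with 15, Flt3 and Clec9a with 4 each and Itgax with 3, while Xcr1 had 0. The sub-cluster is left unnamed. With sub-clusters 4 to 6 left out of the i4F sums, 15 genes were called higher and 28 lower over all B lymphocytes. Without antibody-rich cells 10 were called higher and 0 lower, and the 4 Reg genes were called in both fits. WT cells were not sub-clustered, so the WT sums were unchanged and only the i4F side was filtered.

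**Figure D5:**
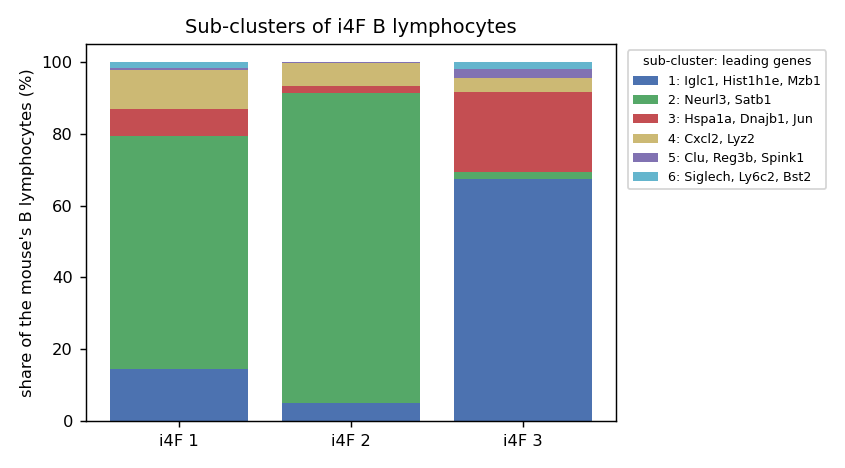
Share of each i4F mouse's B lymphocytes (vertical axis, percent) in each of 6 sub-clusters, named by number with leading genes. Sub-cluster 2 makes up 64.9% and 86.3% of i4F 1 and i4F 2 and 1.86% of i4F 3, where sub-clusters 1 and 3 make up 67.5% and 22.3%.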

How the data were processed

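Single-cell RNA was measured in 10x Genomics 3′ v3 libraries of whole pancreas. According to the methods, the authors aligned reads with Cell Ranger to GRCm38 (mm10 in the submitters' processing notes), merged replicates per condition in Seurat, applied SoupX, removed cells with few genes or high mitochondrial content, and named the clusters by hand. Deposited values are UMI counts, and no source used here says whether they precede or follow SoupX. The deposited percent of mitochondrial UMIs per cell was made by the authors in Seurat. Counts were whole numbers whose sums equalled the deposited totals.

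Members and gene lists were chosen with earlier results of these data known. UMIs of B lymphocytes were summed per mouse, 26831 genes lying in both tables and a gene without a row read as 0. WT (2 mice) and i4F (3 mice) were compared with edgeR 4.0.16 (R 4.3.3, TMM, filterByExpr, quasi-likelihood test, Benjamini-Hochberg over all tested genes, threshold 0.05), after tests on simulated data. CPM count UMIs of 3′ ends and are not corrected for gene length. Genes are compared between mice, apart from the Ighd share, the light chain shares and the ratio of Reg2 to Reg3b. Single values were compared with the exact two-sided permutation test (scipy 1.17.1). Labels do not say how mice were housed or processed, and p-values measure the spread between these mice. Named genes were those on 36 lists and up to 12 per direction with the largest change among called genes with at least 20 UMIs whose groups did not overlap. Other genes named, those that led sub-clusters included, were chosen after their values were seen, as was the split by antibody-rich cells. Alternatives were DESeq2 1.42.0, other scalings, filters and cells, thinning, and leaving out each mouse. Sub-clusters came from Seurat 5.3.0 (SCTransform, 20 principal components, resolution 0.2), led by genes with at least 50 UMIs in 10% of cells. No doublet caller was run. Gene positions are from GENCODE for GRCm38 and upstream windows from RefSeq. Most acinar and islet markers and a few antibody genes were not analysed here. Some genes of the lists are not reported here by name.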

Additional observations from a re-analysis of the deposited data

How the results depend on the processing

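The counts of called genes depended on processing more than their direction. Over all B lymphocytes (6 higher, 16 lower), DESeq2 called 24 and 33, no filter 88 and 89, the 500-gene limit 5 and 7, B lymphocytes without a UMI of other cell types' markers 3 and 0, no TMM 21 higher, the follicular cluster added 1 and 0, sub-clusters 4 to 6 left out 15 and 28, and without antibody genes among those tested 7 lower. Without antibody-rich cells (5 higher, 0 lower), DESeq2 called 20 higher, no filter 80 and 19, thinned sums 8 higher, and sub-clusters 4 to 6 left out 10 higher. The filter on other cell types' markers kept 31.9% and 46.8% of WT B lymphocytes and 22.7%, 39.4% and 43.6% of those of i4F mice. Over all B lymphocytes it left 1047 genes tested in place of 4923, so a call lost there can also reflect fewer UMIs. Choices on antibody-rich cells, the follicular cluster, antibody genes and sub-clusters were made after seeing the data. Sub-clusters were left out of the i4F sums only. Leaving out 1 mouse at a time gave 1 to 28 higher and 6 to 32 lower over all B lymphocytes, and 3 to 30 higher and 0 to 6 lower without antibody-rich cells. By mouse these were 7 and 11 without i4F 1, 1 and 6 without i4F 2, 28 and 27 without i4F 3, 6 and 32 without WT 1 and 12 and 12 without WT 2 over all B lymphocytes. Without antibody-rich cells they were 8 and 0, 3 and 0, 30 and 6, 4 and 2, and 10 and 0 in the same order, with a lone WT mouse assumed to vary like the others. The cause of these shifts was not tested.

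Whether replicate numbers pair the mice could not be told. The same-numbered deviations had r = -0.165 and -0.186, but the deviations of 2 WT mice mirror each other, so these values cannot decide it. A replicate block called 55 genes higher and 42 lower, and 46 and 16 without antibody-rich cells. The B lymphocyte share of immune cells changed sign to -4.12 with at least 500 genes per cell and ran from -8.22 to 10.3 over single mice left out. The lambda share changed sign to -3.53 without cells holding other markers, and its difference was 0.0144 without antibody-rich cells. With the follicular cluster added, the log2 fold changes of Igkv5-39 (1.63), Iglv1 (1.44) and Slpi (0.65) changed sign. Without antibody-rich cells, Creld2 ran from -2.07 without WT 1 to 0.60 without WT 2, and Ighm (0.18) and Mzb1 (0.057) did without cells holding other markers. The summed depth limits what can be seen of genes at a few CPM, most in WT 1 and i4F 2. 6 sub-clusters at resolution 0.2 became 8 at 0.5.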

Other observations

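Variable genes of the antibody chains were thinly covered by the 3′ reads, but they could be counted in B lymphocytes without antibody-rich cells. In i4F 3, 42 of 77 listed heavy chain variable genes had a UMI, 72 UMIs in all, and the most frequent, Ighv1-5, had 4 of them (5.56%). In the same mouse 55 of 73 kappa variable genes had 242 UMIs, with 25 (10.3%) in Igkv14-126. In i4F 1 and i4F 2 the heavy chain genes had 15 UMIs over 13 genes and 8 UMIs over 7 genes. In WT 2, Igkv6-25 held 16 of 31 kappa variable UMIs (51.6%), and WT 1 had 11 UMIs over 11 kappa genes. In i4F 3 a single cell held 540 of the 2518 UMIs of Iglc1.

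Genes of the interferon response were tested for 5 of 15 listed members without antibody-rich cells. All 5 had a positive log2 fold change (median 0.66), edgeR called 0 of them, and 0 had an unadjusted p under 0.05. Ifi27l2a stood at 247 and 241 CPM in WT mice and 486, 391 and 267 CPM in i4F mice. Of 12 immediate early genes tested, edgeR called 0, with 1 higher and 2 lower at an unadjusted p under 0.05. Over all tested genes 4.66% were higher and 3.50% lower at that p. Atf3 stood at 309 and 601 CPM against 197, 109 and 225 CPM, and Jund at 55.6 and 80.4 CPM against 136, 153 and 108 CPM. Atf3 was lower in every i4F mouse, as were 18.7% of all tested genes, and Jund higher, as were 11.6%. Among 4 tested p53 targets edgeR called 0 and 0 had an unadjusted p under 0.05, with Cdkn1a at 61.7 and 72.7 CPM against 188, 84.0 and 99.1 CPM. The median share of mitochondrial UMIs per B lymphocyte was 2.67% and 1.35% in WT mice and 2.14%, 2.71% and 1.82% in i4F mice, so the groups overlapped. The median deposited ribosomal share was 22.1% and 22.7% against 25.1%, 24.4% and 25.4%, with no overlap (exact permutation test, p = 0.2).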
